A study of Homo sapiens with 6 samples.

Results

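Actin-binding and contractile cytoskeleton genes were followed across 22RV1 cells, an established human prostate carcinoma line, in which a short hairpin RNA against IMPDH2, IMPA1 or luciferase was stably expressed. The group was a list of 10 gene symbols, all of which were found among the 17811 genes of the deposited table: the alpha-actinins ACTN1, ACTN2 and ACTN4, SYNPO2, VIL1, TNS3, ACTA2, TPM1, TPM2 and MYL9. ACTN2, SYNPO2, VIL1 and TNS3 were put on the list for the size of their change in these libraries, so their values are given as a description with no test. The other 6 were tested in a fit across all genes. The shIMPDH2 line carried the hairpin against IMPDH2, the enzyme that commits IMP to guanine nucleotide synthesis. The shIMPA1 line carried the hairpin against IMPA1, the phosphatase that releases free inositol from inositol monophosphate. The shLuc line carried a hairpin against firefly luciferase, which human cells lack, and was the control. Each hairpin was represented by 2 libraries of polyA-selected RNA from cells in serum-supplemented RPMI-1640 medium. Whether the 2 libraries came from separate cultures, and whether a line was a pool or a clone, is not given in the sources used here, so the p-values measure the spread between these libraries only.

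Actin filaments are built from actin monomers and shaped by the proteins that bind them. Alpha-actinins and villin tie filaments into networks and bundles, tropomyosins run along the filament and set which other proteins can bind, and non-muscle myosin II, switched by its regulatory light chains, pulls on them. Synaptopodins, tensins and PDZ-LIM proteins link the filaments to Z-discs or to integrin adhesions. In the prostate the strongly contractile form of this machinery, with smooth muscle actin and myosin light chain MYL9, belongs to the stroma, while luminal epithelial cells rely on the cytoplasmic actins and non-muscle myosins.

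The values are read counts divided by 1 size factor per library, called normalized reads here, and the libraries held 20828900 and 22442454 recovered reads for shIMPDH2, 26215122 and 27601249 for shIMPA1, and 27405563 and 27773294 for shLuc. IMPDH2 had 2932 and 3166 normalized reads in shIMPDH2 cells, against 4270 and 5032 in shLuc cells (log2 fold change -0.61, limma adjusted p = 0.00999). IMPA1 had 957 and 1101 in shIMPA1 cells, against 1621 and 1331 in shLuc cells (log2 fold change -0.52, limma adjusted p = 0.0145). The luminal keratin KRT8 averaged 43551 ± 4103 normalized reads in shIMPDH2 cells, 55755 ± 4057 in shIMPA1 cells and 67707 ± 5542 in shLuc cells (SD, n = 2 each). Its partner KRT18 averaged 8247 ± 221 in shIMPDH2 cells, 7352 ± 1272 in shIMPA1 cells and 7899 ± 884 in shLuc cells, so both were abundant in all 3 lines. Of 14 stromal and smooth muscle markers 7 were listed, and DES, ACTG2, CNN1, MYOCD, COL1A2, PDGFRA and PDGFRB were not among the listed genes. The summed level of those 7 was 781 to 832 in shIMPDH2 cells, 590 to 856 in shIMPA1 cells and 1121 to 1145 in shLuc cells, with 3 of 6 tested lower in each line against shLuc cells (LMOD1, LUM and COL1A1 in shIMPDH2 cells, LMOD1, LUM and COL3A1 in shIMPA1 cells). Over all genes tested, limma called 9.15% lower in shIMPDH2 cells and 16.2% lower in shIMPA1 cells, each against shLuc cells. The markers were chosen with earlier results of these data known, so their count is a description. On leaving out any 1 of the 4 libraries LMOD1 and COL1A1 lost their call in shIMPDH2 cells (limma adjusted p up to 0.164), and without either shLuc library COL3A1 lost its call in shIMPA1 cells (limma adjusted p up to 0.135). The part of such transcripts in the results on ACTA2, TPM1, TPM2 and MYL9 was not tested. In a bulk library, fewer cells that express a gene and less of its RNA per cell cannot be told apart.

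Among the 4 genes picked for their size of change, the knockdown lines did not share 1 direction. SYNPO2 stood higher in both knockdown lines than in shLuc cells, VIL1 and TNS3 stood lower in both, and ACTN2 was higher in shIMPDH2 cells and lower in shIMPA1 cells. Both knockdown lines are set against the same 2 shLuc libraries, so their changes are given side by side and are not independent of each other.

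**Figure D1:**
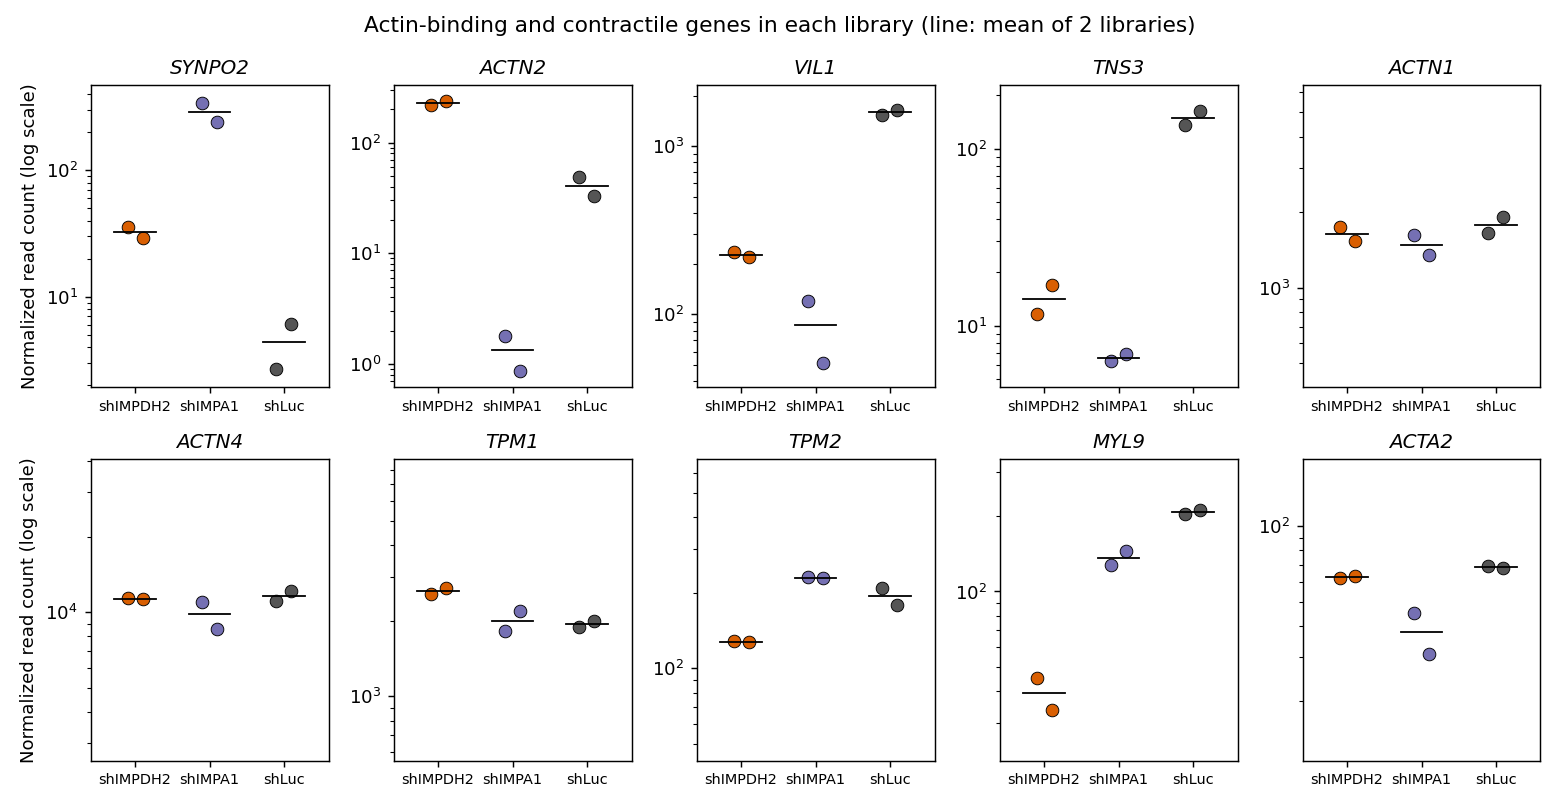
Normalized reads of the 10 genes in each library, on a log scale, with shIMPDH2, shIMPA1 and shLuc from left to right; each point is 1 library and each line a group mean. ACTN2 runs from 227 in shIMPDH2 cells to 1.33 in shIMPA1 cells with shLuc at 40.9, while ACTN4 stays between 8598 and 12147 in all 6 libraries.

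ACTN2 encodes the alpha-actinin of the sarcomeric Z-disc in skeletal and heart muscle (GRCh38 chromosome 1, 236686454 to 236764631, plus strand). It had 217 and 237 normalized reads in shIMPDH2 cells, 1.80 and 0.863 in shIMPA1 cells, and 48.6 and 33.3 in shLuc cells. The 3 groups did not overlap, and the shIMPA1 values stand for 2 reads and 1 read. The mean in shIMPDH2 cells, 227 ± 14.2 (SD, n = 2), was 5.55 times the shLuc mean of 40.9 ± 10.9 (SD, n = 2), a log2 fold change of 2.47. On recovered reads scaled by the size factors, the shLuc level was 30.9 times that in shIMPA1 cells. The 95% interval of this ratio, 10.3 to 153, covers counting error only. The same ratio of shIMPDH2 to shIMPA1 cells was 172, with an interval of 58.5 to 839. Because ACTN2 was picked for its change in these same libraries, neither interval is a test of it. The window of 250 bases before the RefSeq start of ACTN2 (GRCh38.p14 chr1:236686249-236686498, plus strand) is shown because this promoter belongs to the gene whose levels parted most between the knockdown lines. It was 81.6% G and C and held neither of the motifs searched, so no letters are in capitals.
ACTN2: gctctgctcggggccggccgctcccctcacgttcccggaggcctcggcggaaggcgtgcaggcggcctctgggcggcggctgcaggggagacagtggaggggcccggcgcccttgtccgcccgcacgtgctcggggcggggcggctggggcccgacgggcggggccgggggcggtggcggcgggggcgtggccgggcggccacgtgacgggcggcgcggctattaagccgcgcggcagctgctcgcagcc

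The other alpha-actinins, which crosslink filaments in non-muscle cells and are abundant in epithelia, showed no such difference. ACTN4 lies on chromosome 19 (38647649 to 38731583, plus strand) and ACTN1 on chromosome 14 (68874143 to 68979440, minus strand). ACTN4 had 11355 and 11248 normalized reads in shIMPDH2 cells, 10976 and 8598 in shIMPA1 cells, and 11091 and 12147 in shLuc cells. ACTN1 had 1746 and 1537 in shIMPDH2 cells, 1617 and 1355 in shIMPA1 cells, and 1649 and 1905 in shLuc cells. Neither gene passed the test in any of the 3 comparisons. The log2 fold change of ACTN4 was -0.04 for shIMPDH2 against shLuc cells, with an unadjusted 95% interval of -0.36 to 0.28, and -0.26 (interval -0.58 to 0.06) for shIMPA1 against shLuc cells. For ACTN1 the values were -0.11 (interval -0.41 to 0.19) and -0.26 (interval -0.56 to 0.04). These intervals leave room for moderate decreases in shIMPA1 cells, and without shIMPA1 replicate 1 both genes passed there, ACTN4 at -0.43 (limma adjusted p = 0.0169) and ACTN1 at -0.39 (limma adjusted p = 0.0085). Of the exon bases of ACTN4 14.2% overlap CAPN12 on the other strand. Counted per kilobase of exon and as a share of the 3 alpha-actinins, ACTN4 made up 90.5% in shIMPDH2 cells, 91.9% in shIMPA1 cells and 91.6% in shLuc cells. ACTN2 made up 2.01% in shIMPDH2 cells, 0.0134% in shIMPA1 cells and 0.3597% in shLuc cells, so even at its highest it was a minor part of the family's RNA.

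SYNPO2, also called myopodin, is an actin-bundling partner of alpha-actinin at Z-discs and stress fibres (chromosome 4, 118850688 to 119061247, plus strand). It had 35.8 and 29.2 normalized reads in shIMPDH2 cells, 338 and 239 in shIMPA1 cells, and 2.70 and 6.13 in shLuc cells. The groups did not overlap, and the shLuc values stand for 3 and 7 reads, which makes the ratios to shLuc imprecise. The means of 32.5 ± 4.65 in shIMPDH2 cells and 289 ± 70.3 in shIMPA1 cells were 7.37 and 65.4 times the mean of 4.41 ± 2.42 in shLuc cells (SD, n = 2 each). The log2 fold change was 2.70 for shIMPDH2 and 5.80 for shIMPA1 cells against shLuc cells, and -3.10 for shIMPDH2 against shIMPA1 cells. SYNPO2 was thus highest in the line where ACTN2 was lowest.

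VIL1 encodes villin, which bundles and severs actin and is known from the microvilli of gut and kidney epithelium (chromosome 2, 218419092 to 218453295, plus strand). It had 235 and 219 normalized reads in shIMPDH2 cells, 120 and 51.8 in shIMPA1 cells, and 1529 and 1651 in shLuc cells. Both knockdown lines lay far below shLuc cells, and as a ratio the shIMPA1 libraries differed from each other more than those of the other lines. The mean of 1590.2 ± 86.3 in shLuc cells (SD, n = 2) was 7.01 times that in shIMPDH2 cells and 18.5 times that in shIMPA1 cells, with log2 fold changes of -2.80 and -4.31. Of the exon bases of VIL1, 44.0% overlap USP37 on the other strand, and the labels do not say whether counting used strand. USP37 itself had 658 and 621 normalized reads in shIMPDH2 cells, 571 and 525 in shIMPA1 cells, and 616 and 632 in shLuc cells, a far smaller spread than that of VIL1. Within the villin and gelsolin family, per kilobase, VIL1 made up 4.79% and 4.65% in shIMPDH2 cells, 2.64% and 1.04% in shIMPA1 cells, and 28.1% and 27.9% in shLuc cells.

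TNS3 encodes tensin 3, which ties actin to integrin tails at focal and fibrillar adhesions (chromosome 7, 47275154 to 47582558, minus strand). It had 11.6 and 16.9 normalized reads in shIMPDH2 cells, 6.28 and 6.90 in shIMPA1 cells, and 136 and 164 in shLuc cells. The knockdown values stand for 25 reads over both shIMPDH2 libraries and 15 reads over both shIMPA1 libraries. The mean of 149.8 ± 19.6 in shLuc cells (SD, n = 2) was 10.5 times that in shIMPDH2 cells and 22.7 times that in shIMPA1 cells, with log2 fold changes of -3.33 and -4.31. Per kilobase, TNS3 made up 2.35% of the tensin family in shIMPDH2 cells, 1.11% in shIMPA1 cells and 19.5% in shLuc cells. TNS2, which also binds integrin tails, was the largest tensin in all lines, at 60.9% in shIMPDH2 cells, 54.7% in shIMPA1 cells and 55.8% in shLuc cells.

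**Figure D2:**
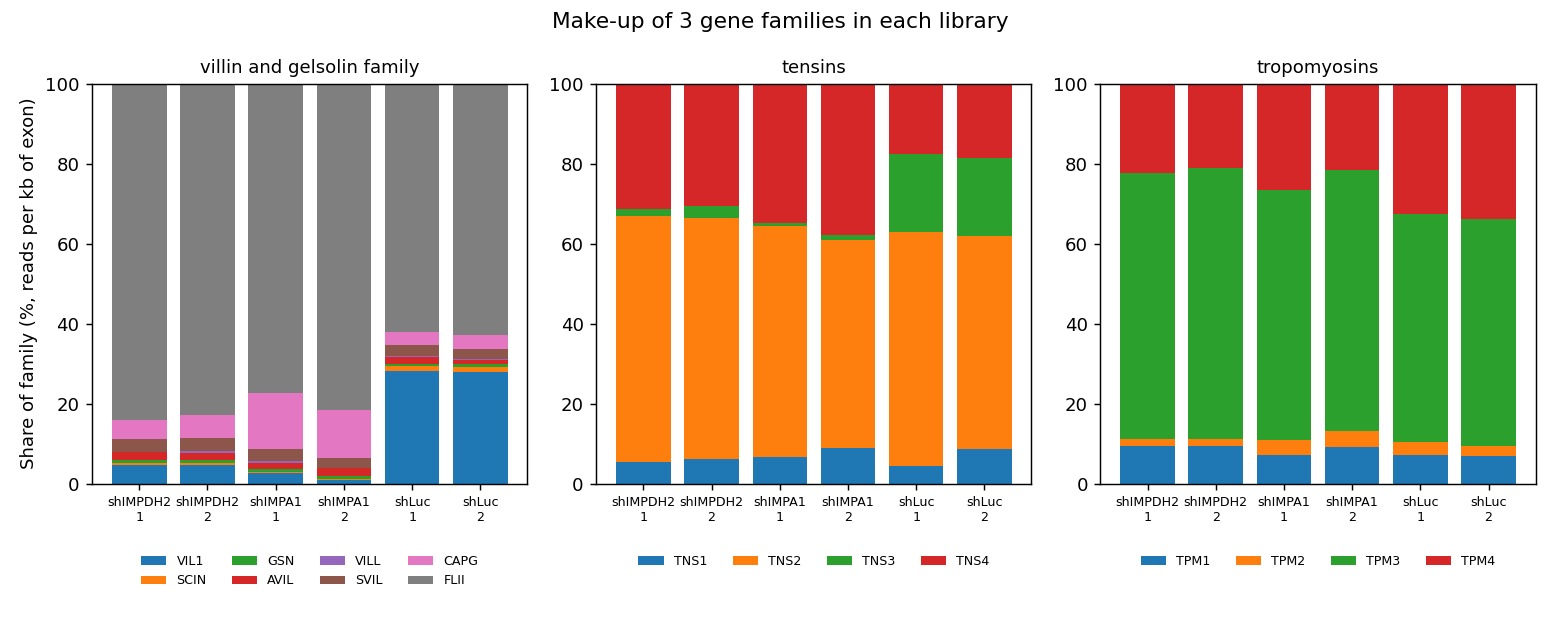
Share of each gene in its family, in percent of the family's summed normalized reads per kilobase of exon, for the villin and gelsolin family, the tensins and the tropomyosins; each stacked bar is 1 library, with shIMPDH2, shIMPA1 and shLuc from left to right. VIL1 takes 4.65% to 4.79% of the villin and gelsolin family in shIMPDH2 cells, 1.04% to 2.64% in shIMPA1 cells and 27.9% to 28.1% in shLuc cells.

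MYL9, the regulatory light chain of smooth muscle and non-muscle myosin II, was the tested gene with the largest change (chromosome 20, 36541484 to 36551447, plus strand). It had 45.1 and 33.7 normalized reads in shIMPDH2 cells, 127 and 145 in shIMPA1 cells, and 203 and 212 in shLuc cells, and the 3 groups did not overlap. It fell in shIMPDH2 cells, with a mean of 39.4 ± 7.999 against 208 ± 5.91 in shLuc cells (SD, n = 2 each) and a log2 fold change of -2.38 (SE 0.21, limma adjusted p = 4.81e-05). It was also lower in shIMPDH2 than in shIMPA1 cells, with a log2 fold change of -1.78 (limma adjusted p = 0.000183). Both calls held in all 15 alternative fits. In shIMPA1 cells MYL9 fell by 0.61 on the log2 scale (SE 0.21, limma adjusted p = 0.0452). Leaving out a shLuc library ended that call (replicate 1, limma adjusted p = 0.181; replicate 2, limma adjusted p = 0.219), as did leaving out a shIMPDH2 library (limma adjusted p = 0.0523 and limma adjusted p = 0.0502). With DESeq2 on the recovered reads it was just outside the threshold (DESeq2 adjusted p = 0.0522).

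The other light chains of the family carried most of its RNA. MYL12B, which with its close paralog MYL12A encodes the main light chain of non-muscle myosin II, made up 85.0% of the 3 regulatory light chains per kilobase in shIMPDH2 cells, 80.0% in shIMPA1 cells and 79.9% in shLuc cells. MYL9 made up 0.179% in shIMPDH2 cells, 0.955% in shIMPA1 cells and 1.20% in shLuc cells. MYL12B itself rose in shIMPDH2 cells against shLuc cells by 0.46 on the log2 scale (limma adjusted p = 0.0383), a call that was lost on leaving out either library of either line, with adjusted p up to 0.328. Reads that MYL12A and MYL12B share can be split between them.

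ACTA2, smooth muscle alpha-actin, was a low-level transcript in these cells (chromosome 10, 88935074 to 88991339, minus strand). It had 62.4 and 63.0 normalized reads in shIMPDH2 cells, 44.9 and 31.1 in shIMPA1 cells, and 69.3 and 68.3 in shLuc cells. It fell in shIMPA1 cells against shLuc cells, with a log2 fold change of -0.86 (SE 0.25, limma adjusted p = 0.0236), while the value for shIMPDH2 against shLuc cells was -0.13 (unadjusted 95% interval -0.68 to 0.42). Leaving out shLuc replicate 1 (limma adjusted p = 0.136), shLuc replicate 2 (limma adjusted p = 0.128) or shIMPA1 replicate 2 (limma adjusted p = 0.0788) ended the shIMPA1 call. So did DESeq2 (DESeq2 adjusted p = 0.0599) and a fit of these 2 groups only (limma adjusted p = 0.0513). Between the knockdown lines the log2 fold change was 0.73 (limma adjusted p = 0.0513), and it passed without shIMPA1 replicate 1 (0.99, limma adjusted p = 0.0018). The cytoplasmic actins ACTB and ACTG1, which build the filaments of non-muscle cells, together dwarfed ACTA2: per kilobase, ACTA2 was 0.172% of the 3 actins in shIMPDH2 cells, 0.0926% in shIMPA1 cells and 0.147% in shLuc cells. ACTB and ACTG1 passed the test in neither comparison with shLuc. Of 50-base stretches in ACTA2 transcripts 26.0% also occur in transcripts of another gene, FAS and ACTA2-AS1 among them. FAS, on the opposite strand, had 387 and 475 normalized reads in shIMPDH2 cells, 291 and 200 in shIMPA1 cells, and 410 and 382 in shLuc cells, so it too was lowest in shIMPA1 cells, and its part in the ACTA2 result was not tested.

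The tropomyosins TPM1 and TPM2, which stabilise actin filaments and gate myosin on them, differed in opposite directions in shIMPDH2 cells. TPM1 lies on chromosome 15 (63042632 to 63071915, plus strand) and TPM2 on chromosome 9 (35681992 to 35690121, minus strand). TPM1 had 2554 and 2693 normalized reads in shIMPDH2 cells, 1818 and 2190 in shIMPA1 cells, and 1883 and 1994 in shLuc cells. Both shIMPDH2 libraries lay above all others, and TPM1 rose by 0.44 on the log2 scale against shLuc cells (SE 0.13, limma adjusted p = 0.0366) and by 0.39 against shIMPA1 cells (limma adjusted p = 0.0402). TPM2 had 128 and 127 in shIMPDH2 cells, 231 and 229 in shIMPA1 cells, and 209.7 and 179 in shLuc cells. It fell in shIMPDH2 cells, with log2 fold changes of -0.60 against shLuc cells (SE 0.16, limma adjusted p = 0.0288) and -0.84 against shIMPA1 cells (limma adjusted p = 0.00401), and the second call held in all 15 alternative fits. The calls of TPM1 and TPM2 against shLuc cells were lost on leaving out any 1 of the 4 libraries, with limma adjusted p of 0.147 to 0.252 for TPM1 and 0.102 to 0.244 for TPM2. The TPM1 call against shIMPA1 cells was lost on leaving out either shLuc library, either shIMPDH2 library or shIMPA1 replicate 1, with limma adjusted p of 0.0752 to 0.240. In shIMPA1 against shLuc cells neither passed, with log2 fold changes of 0.04 for TPM1 (unadjusted 95% interval -0.23 to 0.32) and 0.24 for TPM2 (interval -0.12 to 0.60).

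Per kilobase the 4 tropomyosins kept 1 order in shIMPDH2, shIMPA1 and shLuc cells, with TPM3 first and TPM2 last. TPM3 made up 67.1% of the family in shIMPDH2 cells, 63.9% in shIMPA1 cells and 56.8% in shLuc cells. TPM4 made up 21.7% in shIMPDH2 cells, 24.1% in shIMPA1 cells and 33.2% in shLuc cells. TPM1 made up 9.34%, 8.24% and 7.13%, and TPM2 1.80%, 3.73% and 2.85%, in the same order of lines. Of 50-base stretches in TPM1 transcripts 20.0% also occur in transcripts of another gene, the antisense TPM1-AS among them, and the part of such genes was not tested.

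Counted together, of the 6 tested genes 1 rose (TPM1) and 2 fell (TPM2 and MYL9) in shIMPDH2 against shLuc cells, where 17.0% of 17742 genes were called in either direction. The median log2 fold change of the 6 was -0.12, against -0.01 over all genes. In shIMPA1 against shLuc cells limma called 2, MYL9 and ACTA2, both lower, where 30.2% of genes were called, and their median was -0.26, against 0.02 over all genes. In shIMPDH2 against shIMPA1 cells 1 was higher (TPM1) and 2 were lower (TPM2 and MYL9), where 26.1% of genes were called, and the median was 0.18, against a median over all genes that was 0 to 2 decimals. In each comparison the 2 or 3 calls among 6 genes stand beside those background shares, and nothing particular to the 6 is read from them.

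**Figure D3:**
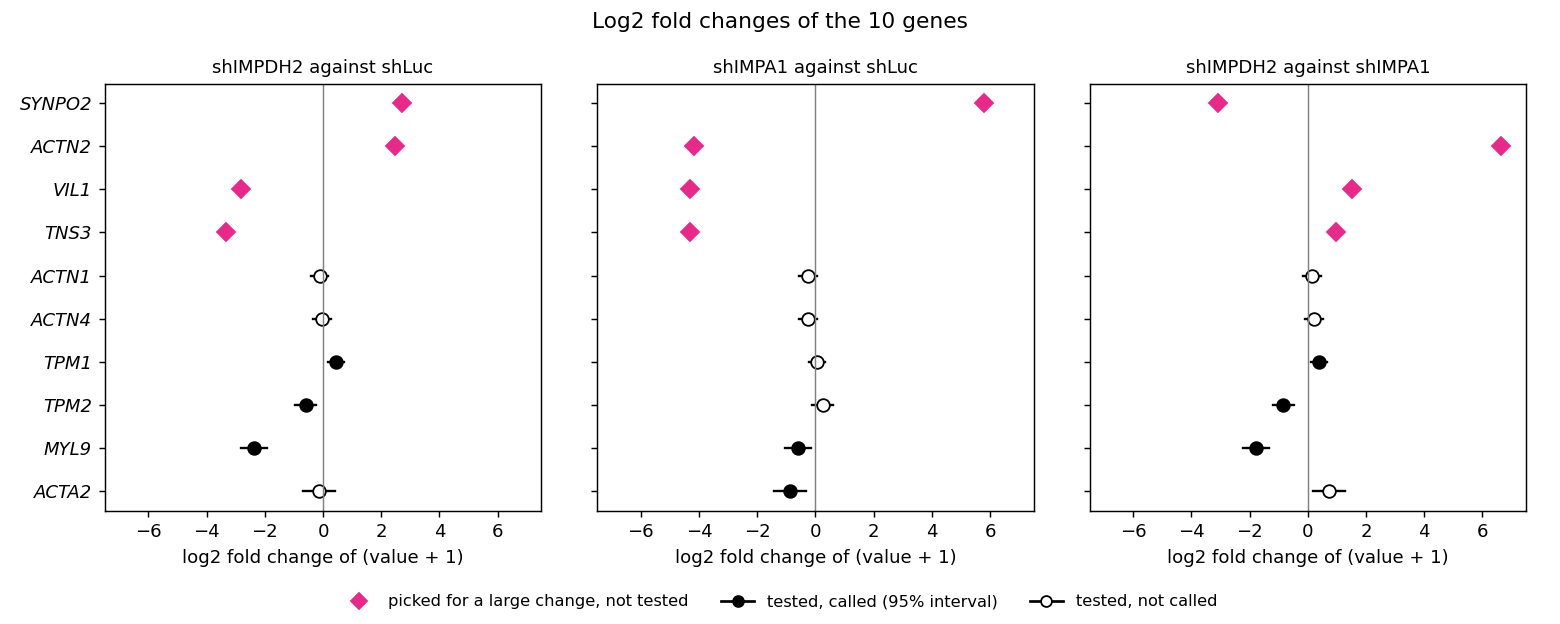
Log2 fold change of each gene, on log2(normalized reads + 1), in shIMPDH2 against shLuc, shIMPA1 against shLuc and shIMPDH2 against shIMPA1 cells; bars on the 6 tested genes are unadjusted 95% intervals, and the 4 genes picked for their change carry none. MYL9 lies at -2.38 in shIMPDH2 against shLuc cells, and ACTN2 at 2.47 there and at -4.18 in shIMPA1 against shLuc cells.

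On a per-kilobase scale the order of the 10 genes shifted between the lines. ACTN2, SYNPO2, VIL1 and TNS3 were picked for their change, so shifts in their rank follow from that choice. ACTN4 stood at 1853 normalized reads per kilobase of exon in shIMPDH2 cells, 1605 in shIMPA1 cells and 1905 in shLuc cells, the highest of the 10 in each. In shIMPDH2 cells it was followed by TPM1 (204), ACTN1 (154), ACTN2 (41.1), TPM2 (39.3), VIL1 (32.8), ACTA2 (21.1), MYL9 (13.97), SYNPO2 (2.32) and TNS3 (1.20). The neighbours ACTN2 and TPM2 overlapped between their libraries there. In shIMPA1 cells the order was TPM1 (156), ACTN1 (139.9), TPM2 (70.7), MYL9 (48.3), SYNPO2 (20.6), ACTA2 (12.8), VIL1 (12.4), TNS3 (0.559) and ACTN2 (0.240), and TPM1 overlapped ACTN1 and VIL1 overlapped SYNPO2 and ACTA2. In shLuc cells it was VIL1 (229.8), ACTN1 (167), TPM1 (151), MYL9 (73.6), TPM2 (59.9), ACTA2 (23.1), TNS3 (12.7), ACTN2 (7.40) and SYNPO2 (0.314). VIL1, a picked gene, ranked just after ACTN4 in shLuc cells and below 5 and 7 of the other genes in the shIMPDH2 and shIMPA1 lines. Among the genes not picked for their change, ACTN4 came first and TPM2 stayed above ACTA2 in each line. MYL9 stood below ACTA2 in shIMPDH2 cells, between TPM2 and ACTA2 in shIMPA1 cells and above TPM2 in shLuc cells. TPM1 stood above ACTN1 in both knockdown lines and below it in shLuc cells. Exon length counts all annotated exons of a gene, so genes with long alternative ends are understated.

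The promoters of these genes were searched for the CArG box, the site of serum response factor, which drives many contractile genes, and for CATTCC, the core site of TEAD factors, on both strands. Windows of 250 bases before a RefSeq start were searched for 8 of the 10 genes, 18 windows in all, and those of VIL1 and MYL9 were not analysed here. The CArG box was searched in its strict form only, CCWWWWWWGG with W for A or T, and looser forms were not counted. A strict CArG box stood in 1 of the 18 windows, against 1.16% of 35116 windows of all genes. CATTCC or its reverse complement GGAATG stood in 3 of the 18, against 11.9% of all windows. The 3 windows with a match are shown, with the matches in capitals, since they include SYNPO2, which parted strongly between the lines, ACTA2 and ACTN1. The window of the first of 3 starts of SYNPO2 (GRCh38.p14 chr4:118850431-118850680, plus strand) held GGAATG 214 bases before the start, and those of its other starts held neither motif. The window of the second start of ACTA2 (chr10:88952774-88953023, minus strand) held GGAATG 183 bases before the start. That ACTA2 window also held CCCTATATGG and CCTTGTTTGG, each 1 base off the strict CArG form and so left unmarked. The window of the third start of ACTN1 (chr14:68977567-68977816, minus strand) held the CArG box 171 bases and CATTCC 154 bases before the start. ACTN1 has several starts and did not pass the test in any comparison, and a match of letters is a description, not a binding site.
SYNPO2: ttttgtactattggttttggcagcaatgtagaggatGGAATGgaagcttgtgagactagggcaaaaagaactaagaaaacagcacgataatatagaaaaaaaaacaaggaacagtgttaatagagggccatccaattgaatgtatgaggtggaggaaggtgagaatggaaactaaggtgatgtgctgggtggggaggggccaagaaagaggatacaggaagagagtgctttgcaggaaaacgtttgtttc
ACTA2: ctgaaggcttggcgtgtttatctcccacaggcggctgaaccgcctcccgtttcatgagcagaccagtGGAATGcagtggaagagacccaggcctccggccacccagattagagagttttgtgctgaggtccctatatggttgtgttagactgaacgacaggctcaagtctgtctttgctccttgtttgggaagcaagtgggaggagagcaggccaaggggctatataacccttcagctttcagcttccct
ACTN1: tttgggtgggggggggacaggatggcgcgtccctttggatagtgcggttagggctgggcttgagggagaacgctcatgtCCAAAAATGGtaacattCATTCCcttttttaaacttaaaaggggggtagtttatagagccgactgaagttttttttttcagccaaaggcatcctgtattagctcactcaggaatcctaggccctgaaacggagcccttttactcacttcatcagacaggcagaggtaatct

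Other genes of the actin cytoskeleton were taken from lists of related proteins. The lists were chosen with earlier results of these data known. The shares called are therefore a description, and nothing particular to these genes is read from them. Of 119 such genes 105 were tested. In shIMPDH2 against shLuc cells 6 rose and 21 fell, or 5.71% and 20.0%, where 7.86% and 9.15% of all genes did, and the median log2 fold change was -0.02. In shIMPA1 against shLuc cells 8 rose and 20 fell, or 7.62% and 19.0%, where 14.0% and 16.2% of all genes did, and the median was -0.17. In shIMPDH2 against shIMPA1 cells 18 rose and 11 fell, or 17.1% and 10.5%, where 13.5% and 12.6% of all genes did.

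Of 9 tested microvillus and membrane-linker genes 3 were called in shIMPDH2 cells (MSN, MYO1A and USH1C) and 2 in shIMPA1 cells (MYO1A and USH1C), all lower than in shLuc cells. The median log2 fold change of the 9 was 0.04 in shIMPDH2 cells and 0.01 in shIMPA1 cells. MSN, moesin, which links actin to the membrane, was lost in shIMPDH2 cells without shLuc replicate 2 (limma adjusted p = 0.0715). USH1C, harmonin, a scaffold of the microvillus tip links, had log2 fold changes of -2.08 in shIMPDH2 cells (limma adjusted p = 0.0147) and -1.67 in shIMPA1 cells (limma adjusted p = 0.0245), and both calls were lost without either shLuc library. The first was also lost without either shIMPDH2 library and the second without shIMPA1 replicate 2. ESPN, espin, which bundles actin in microvilli and stereocilia, averaged 25.1 ± 3.70 normalized reads in shIMPDH2 cells, 42.0 ± 13.0 in shIMPA1 cells and 252 ± 5.02 in shLuc cells (SD, n = 2 each). Its log2 fold changes were -3.28 in shIMPDH2 cells (limma adjusted p = 2.52e-05) and -2.59 in shIMPA1 cells (limma adjusted p = 5.77e-05). MYO1A, the brush border myosin, averaged 65.6 ± 3.66 in shIMPDH2 cells, 78.6 ± 10.9 in shIMPA1 cells and 209 ± 26.0 in shLuc cells, with log2 fold changes of -1.65 (limma adjusted p = 0.000371) and -1.40 (limma adjusted p = 0.000598). SCIN, scinderin, a severing protein of the villin family, averaged 34.2 ± 0.647 in shIMPDH2 cells, 20.3 ± 6.79 in shIMPA1 cells and 113 ± 4.65 in shLuc cells. Its log2 fold changes were -1.70 in shIMPDH2 cells (limma adjusted p = 0.00238) and -2.46 in shIMPA1 cells (limma adjusted p = 0.000146). Without shLuc replicate 2 the shIMPDH2 call was lost (limma adjusted p = 0.0570). CAPG, a capping protein of the same family, ran the other way and rose in shIMPA1 cells, at 231 ± 13.3 against 71.4 ± 7.99 in shLuc cells (log2 fold change 1.69, limma adjusted p = 0.000121). EZR, ezrin, which anchors microvilli to the membrane, passed the test in neither comparison with shLuc.

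Crosslinkers differed by paralog. Of 11 tested 2 rose and 4 fell in shIMPDH2 cells, and 5 fell in shIMPA1 cells, against shLuc cells. FLNC, the muscle-type filamin, fell in shIMPDH2 cells to 226 ± 17.2 normalized reads, against 665 ± 25.0 in shLuc cells (log2 fold change -1.56, limma adjusted p = 6.1e-05). FLNA, the widely expressed filamin, fell in shIMPA1 cells to 1503 ± 273, against 3077 ± 271 in shLuc cells (log2 fold change -1.04, limma adjusted p = 0.000419). FLNC in shIMPA1 cells had a log2 fold change of -0.10 and FLNA in shIMPDH2 cells one of -0.28 against shLuc cells, and neither passed. Directly between the knockdown lines, shIMPDH2 against shIMPA1, FLNC had a log2 fold change of -1.46 (limma adjusted p = 5.01e-05) and FLNA one of 0.76 (limma adjusted p = 0.00308).

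Of 6 tested genes of the synaptopodin family and Z-disc list 2 fell in shIMPDH2 cells (CSRP2 and PDLIM3) and 2 rose in shIMPA1 cells (NEBL and PDLIM3), against shLuc cells. NEBL, the nebulin relative that lies at Z-discs and focal adhesions, rose in shIMPA1 cells to 1345 ± 368, against 479 ± 23.7 in shLuc cells (log2 fold change 1.46, limma adjusted p = 0.000199). Its value in shIMPDH2 against shLuc cells was -0.02 and did not pass, and the difference between the knockdown lines was -1.48 (limma adjusted p = 0.000218). PDLIM3, an alpha-actinin-binding PDZ-LIM protein, fell in shIMPDH2 cells (log2 fold change -0.69, limma adjusted p = 0.0375) and rose in shIMPA1 cells (0.69, limma adjusted p = 0.0237), each against shLuc cells. Directly between the knockdown lines PDLIM3 was lower in shIMPDH2 cells (log2 fold change -1.39, limma adjusted p = 0.000738), a call that held on leaving out each library. Both PDLIM3 calls against shLuc cells were lost without either shLuc library, the first also without either shIMPDH2 library and the second without shIMPA1 replicate 2. CSRP2, a LIM protein of smooth muscle that binds alpha-actinin, fell in shIMPDH2 cells to 1374 ± 137, against 4303 ± 756 in shLuc cells (log2 fold change -1.64, limma adjusted p = 0.000623). Of 18 tested focal adhesion genes 3 fell in shIMPDH2 cells, and 4 rose and 3 fell in shIMPA1 cells. Among them PDLIM1, another alpha-actinin partner, fell in shIMPA1 cells (log2 fold change -1.26, limma adjusted p = 0.000534). PDLIM1 was also lower in shIMPDH2 cells (log2 fold change -0.73, limma adjusted p = 0.0171). That second call was lost without either shLuc library or either shIMPDH2 library. PDLIM5, a further PDZ-LIM protein, went the other way and rose in shIMPA1 cells (log2 fold change 0.97, limma adjusted p = 0.000332), a call that held on leaving out each library.

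Of 14 tested myosin II genes 1 rose and 1 fell in shIMPDH2 cells, and 1 fell in shIMPA1 cells, against shLuc cells. ROCK1, the kinase that raises myosin light chain phosphorylation, fell in shIMPDH2 cells to 1280 ± 41.1, against 1999 ± 150.3 in shLuc cells (log2 fold change -0.64, limma adjusted p = 0.00405), a call lost without shLuc replicate 2 or shIMPDH2 replicate 2 (limma adjusted p up to 0.0743). MYH10, a non-muscle myosin heavy chain, fell in shIMPA1 cells (log2 fold change -0.997, limma adjusted p = 0.00138). Of 12 tested tropomyosin and thin-filament genes 4 fell in shIMPDH2 cells (CNN2, CNN3, LMOD1 and TPM4), and 6 fell and 1, TAGLN, rose in shIMPA1 cells. All of the 4 calls in shIMPDH2 cells were lost without either shLuc library or either shIMPDH2 library. In shIMPA1 cells TMOD2 and LMOD1 held on leaving out each library, and leaving out shLuc replicate 2 ended the call of TPM4 (limma adjusted p = 0.0945). TAGLN, CNN2, CNN3 and SMTN were lost there without either shLuc library or either shIMPDH2 library (limma adjusted p up to 0.296), the last 3 also without shIMPA1 replicate 2. SRF, serum response factor itself, fell in shIMPDH2 cells to 1719 ± 19.6, against 2512 ± 114 in shLuc cells (log2 fold change -0.55, limma adjusted p = 0.00827). The SRF call was lost on leaving out any 1 of the 4 libraries, with p up to 0.102, and in shIMPA1 cells its value was -0.05 and did not pass. Of the calls in these lists that are named by the rule, 8 of 21 in shIMPDH2 cells and 14 of 18 in shIMPA1 cells held on leaving out each library in turn.

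**Figure D4:**
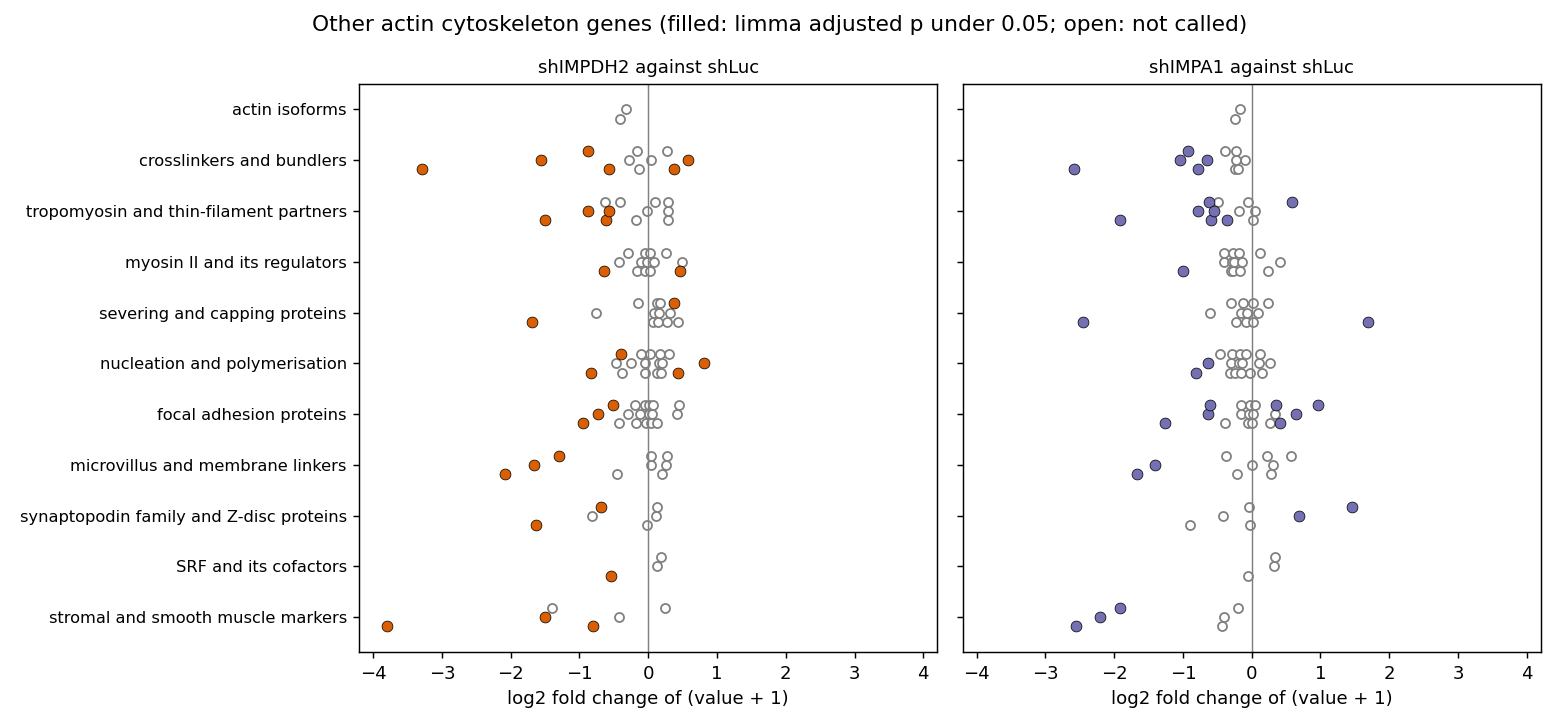
Log2 fold change, on log2(normalized reads + 1), of every tested gene of the actin-related lists and of the stromal and smooth muscle markers, in shIMPDH2 against shLuc and shIMPA1 against shLuc cells; each point is 1 gene, filled where limma called it. ESPN lies lowest among the crosslinkers at -3.28 in shIMPDH2 cells and -2.59 in shIMPA1 cells.

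Among genes with a mean of at least 50 normalized reads, the 2 with the profile over the 6 libraries closest to each of SYNPO2, VIL1 and TNS3 were found by the root mean square difference of centred log2 values over 13308 genes. For SYNPO2 these were SMOC1, a secreted matrix protein, at 0.548, and KCNG1, a potassium channel subunit, at 0.611. SMOC1 averaged 993 normalized reads in shIMPDH2 cells, 7010 in shIMPA1 cells and 198 in shLuc cells. For VIL1 they were ZNF385B, a zinc finger protein, at 0.302, and SPTSSB, a subunit of serine palmitoyltransferase, at 0.370. ZNF385B averaged 119 in shIMPDH2 cells, 52.7 in shIMPA1 cells and 625 in shLuc cells. For TNS3 they were VIM, vimentin, at 0.170, and CRISPLD1, a secreted protein, at 0.336. VIM averaged 66.0 in shIMPDH2 cells, 41.8 in shIMPA1 cells and 706 in shLuc cells, and all 6 genes are named by likeness of level alone.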

How the data were processed

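RNA-seq was deposited as 1 table of 6 libraries, 2 each of 22RV1 cells with shIMPDH2, shIMPA1 and shLuc. Reads were trimmed with Trimmomatic 0.36, aligned with STAR 2.5.2b to GRCh38 and unique exon reads were counted with featureCounts of Subread 1.5.2, per the labels' protocols and the submitters' processing notes. No source used here states the annotation release or the strandedness. The deposited values are a signal: counts divided by 1 size factor per library. Whole reads were recovered from the size of their steps for 99.98% to 100% of genes within 0.05 read, giving 20828900 to 27773294 per library. The authors' deposited log2 fold change and p-value columns name no comparison and were not used.

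Values were tested with limma 3.58.1 in R 4.3.3 on log2(value + 1), with a mean-variance trend, 1 coefficient per group over all 6 libraries and 3 residual degrees of freedom. A gene was tested if 2 or more libraries reached 10 (17742 genes, with 69 removed). Calls were made at a Benjamini-Hochberg adjusted p under 0.05 over all genes tested. Fold changes are on this log2 scale and understate those of low genes. Intervals are 95% and unadjusted, and count ratios carry exact intervals. The fit was also run on simulated counts with 1 level of spread for all genes. That setting is simpler than these libraries, and no result rests on it. Alternatives were edgeR 4.0.16 and DESeq2 1.42.0 on the recovered reads, other pseudocounts, no filter, TMM scaling, the 2 groups alone, no trend, a replicate block and leaving out each library. edgeR called 3007 genes in shIMPDH2 and 5480 in shIMPA1 against shLuc cells, and 4550 between the knockdown lines.

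Genes named were the 10 members, up to 2 called genes with the smallest adjusted p from each list and comparison with shLuc, and the 2 genes most like SYNPO2, VIL1 and TNS3. ACTB, ACTG1, EZR and USP37, FAS and the remaining family members were named besides, as partners of a member. The members and lists were chosen with earlier results of these data known. Symbols, positions and exon lengths came from GENCODE 29 (17750 of 17811 genes matched) and promoters from RefSeq GRCh38.p14.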

Additional observations from a re-analysis of the deposited data

How the results depend on the processing

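Counts of called genes depended on how the spread was estimated. For shIMPDH2 against shLuc cells 3018 genes were called, against 6382 in a fit of those 2 groups only, 1727 with no mean-variance trend and 773 to 6386 on leaving out each library. For shIMPA1 against shLuc cells 5361 were called, against 3508 with no trend and 2147 to 7940 on leaving out each library. For shIMPDH2 against shIMPA1 cells 4627 were called, against 2909 with no trend and 1430 to 7052 on leaving out each library. Replicate numbers are shared by label only: same-numbered libraries correlated at 0.04 between shIMPA1 and shLuc, -0.05 between shIMPDH2 and shLuc, and 0.000266 between shIMPDH2 and shIMPA1. With the replicate block 2939 genes were called in shIMPDH2 against shLuc, 5298 in shIMPA1 against shLuc and 4537 between the knockdown lines, and MYL9 in shIMPA1 against shLuc cells had a limma adjusted p of 0.0539. Of the values of the 10 genes under the alternatives 402 were unchanged, 29 lost a call and 6 gained one. Another 11, all of picked genes with no test, moved by more than the spread between libraries. Unchanged means the same direction and call for a tested gene. For a picked gene, which has no call, it means the same direction and a shift within that spread. No filter, no trend, the replicate block and the 2 groups alone leave the fold change of a picked gene as it is. Leaving out 1 library of a group shifts it by less than that spread whatever the values. The 402 include such values, so this count does not measure how robust the picked genes are. The sign turned in 2 uncalled values: ACTN4 in shIMPDH2 against shLuc cells was 0.027 without shLuc replicate 2 and -0.10 without shLuc replicate 1, and TPM1 in shIMPA1 against shLuc cells was -0.092 without shIMPA1 replicate 2 and 0.18 without shIMPA1 replicate 1. The causes were not tested. With no trend the adjusted p was 0.117 for TPM1 in shIMPDH2 and 0.0622 for MYL9 in shIMPA1, each against shLuc cells, and DESeq2 gave 0.0511 for TPM2 in shIMPDH2 against shLuc cells. Depth limits ACTN2 in shIMPA1 cells, SYNPO2 in shLuc cells and TNS3 in both knockdown lines, which rest on 3 to 25 reads over 2 libraries.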
